A study of Caenorhabditis elegans with 2 samples.

Results

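Transfer RNA (tRNA) gene loci were all 612 nuclear genes annotated as tRNA in Ensembl release 115 for C. elegans, each widened by 200 bp on both sides. Membership was set by the annotation, among 46890 annotated nuclear genes, but the class was picked with earlier results of these data known. A locus was called bound when the summit of a peak lay inside it. The peaks were those of the authors' optimal list, which holds 1200 peaks of chromatin immunoprecipitation with sequencing (ChIP-seq). By this rule 147 loci were bound, 24.0% of the 612.

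The tagged protein was LET-526, the worm's ARID1-type subunit of the BAF form of the SWI/SNF chromatin remodelling complex. There was 1 group of 2 biological replicates of whole young adults of strain RW12306, aged 60 hours, whose population had been synchronised by bleaching and starvation at the first larval stage. The strain carries a CRISPR insertion, st12306 (let-526::TY1::EGFP::3xFLAG) on chromosome I, and sonicated chromatin was precipitated with an antibody against GFP. It is 1 allele in 1 strain, all tissues were pooled, and no untagged or input library was analysed here. The files hold peaks and no read counts, so depth is unknown. Intervals below are exact 95% binomial intervals over loci and cover counting error only. Neighbouring loci can share a peak and identical genes share sequence, so loci are not independent.

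RNA polymerase III transcribes tRNA genes from a promoter that lies inside the gene. Its A box and B box, which become the D arm and the T arm of the tRNA, are bound by the factor TFIIIC, which recruits TFIIIB to the DNA just upstream of the gene. A run of T after the gene ends transcription. SWI/SNF complexes use ATP to move or evict nucleosomes and are studied mostly at genes of RNA polymerase II.

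The genes below were the 5 strongest bound loci with distinct sequences that could be shown. They are printed on the gene strand from RefSeq's WBcel235 genome, with the A box and B box in capitals, to show what lay under the peaks. The boxes were searched as TNGCNNAG starting in the first 25 bases and as TTCNANNC after base 35. F15G9.t1 decodes alanine, T03E6.t1 glutamine, C04A11.t1 leucine, R04D3.t2 valine and F57F5.t1 isoleucine. The optimal signal was 183.7 at F15G9.t1, 146.4 at T03E6.t1, 127.6 at C04A11.t1, 119.9 at R04D3.t2 and 119.6 at F57F5.t1. The extra bases of C04A11.t1 and F57F5.t1 lie largely in an intron after the anticodon. T03E6.t1 and R04D3.t2 hold no match to the A box letters in that window.
F15G9.t1, chrX:9743589-9743660, plus strand: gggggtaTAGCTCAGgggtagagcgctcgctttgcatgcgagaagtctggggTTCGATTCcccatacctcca
T03E6.t1, chrV:16592237-16592308, minus strand: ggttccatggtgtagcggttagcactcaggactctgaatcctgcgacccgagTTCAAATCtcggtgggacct
C04A11.t1, chrX:13665555-13665673, plus strand: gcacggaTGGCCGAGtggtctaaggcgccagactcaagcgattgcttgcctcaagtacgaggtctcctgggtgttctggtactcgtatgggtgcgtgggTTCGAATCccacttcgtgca
R04D3.t2, chrX:13307034-13307106, plus strand: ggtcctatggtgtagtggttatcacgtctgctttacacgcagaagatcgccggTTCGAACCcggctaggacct
F57F5.t1, chrV:12002176-12002260, plus strand: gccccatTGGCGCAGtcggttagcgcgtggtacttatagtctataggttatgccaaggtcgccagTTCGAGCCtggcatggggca

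One whole locus is shown for its layout, the glutamine gene T03E6.t1 with 100 bp on each side and the gene in capitals. It had no other tRNA gene within 1000 bp, and its summit lay 27 bp before the first base of the gene. The run of T that follows the gene begins a few bases after the capitals.
T03E6.t1, chrV:16592137-16592408, minus strand: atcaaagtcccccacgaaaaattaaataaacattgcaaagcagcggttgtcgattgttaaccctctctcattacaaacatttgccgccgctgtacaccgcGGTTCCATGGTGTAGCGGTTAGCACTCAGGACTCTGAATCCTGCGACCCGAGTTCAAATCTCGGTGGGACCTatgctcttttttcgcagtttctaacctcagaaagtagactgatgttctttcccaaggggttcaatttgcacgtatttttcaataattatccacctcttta

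The optimal signal of the 147 bound loci, the peak caller's own value, ran from 69.4 to 209.5 with a median of 94.2, close to the median of 92.3 over all 1200 optimal peaks. The strongest tRNA peak ranked 57th in the list. It served a divergent pair on X, the glycine gene M02F4.t1 and the glutamate gene M02F4.t2, whose shared summit lay between them (signal 209.5, with 118.8 in replicate 1 and 90.3 in replicate 2). The lysine gene C33G3.t2 followed, with 203.7 in the optimal list, 112.0 in replicate 1 and 87.1 in replicate 2. The alanine genes F15G9.t1 and F15G9.t2 shared a summit in an intron of him-4, the gene of the extracellular matrix protein hemicentin, with 183.7, 81.1 and 101.3. The lysine gene W03G11.t1 had 180.7, 93.5 and 80.5 in the same order. Signals are not comparable between lists, but each of these peaks was also near the top of both replicate lists, at percentiles of 99.7 or more in replicate 2 and 99.5 or more in replicate 1.

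Further down the list were the tyrosine gene C02B4.t2 in an intron of nhr-17, which encodes a nuclear hormone receptor (159.3), the asparagine gene F41D9.t3 in an intron of sulp-3, of the sulfate permease family (153.9 in the optimal list), the arginine gene F14B4.t1 on chromosome I (153.5) and the convergent lysine and proline genes T23F1.t1 and T23F1.t2 on V (150.4). All 10 strongest loci were called in the thresholded lists of both replicates. T03E6.t1 (72.7 in replicate 1 and 73.5 in replicate 2) and the threonine gene R01H5.t1 (68.0 and 63.5) were also among the 10 loci whose lower replicate signal was highest. That rule sets values of 2 lists side by side and serves only to name loci.

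The strongest locus of the other isotypes had an optimal signal of 131.1 for leucine (C04E7.t1), 120.7 for tryptophan (B0523.t1, in an intron of fli-1, a gelsolin family gene), 118.3 for aspartate (T14F9.t1), 116.5 for methionine (C14B9.t1) and 107.4 for serine (C53C7.t1). Histidine (W09G10.t1, 98.3), phenylalanine (F22B7.t3, 89.3) and cysteine (C37A2.t1, in an intron of the cyclin E gene cye-1, 78.0) had the lowest such values. The bound loci of lowest signal were the proline gene ZK899.t1 (optimal signal 70.5), the leucine gene C43G2.t1 (69.7) and the glycine gene C30E1.t1 (69.4). Peaks in the optimal list are chosen by a reproducibility score, from the irreproducible discovery rate, of at least 830. Just inside that threshold lay the leucine gene C43G2.t1 (score 832), the aspartate gene F38G1.t2 (835) and the lysine gene K07C10.t1 (841), with signals of 69.7, 74.3 and 72.0. Just outside lay the leucine gene Y110A2AL.t2 (829), the threonine gene F43E12.t1 (816) and the histidine gene ZC449.t1 (814), with signals of 73.4, 79.6 and 77.4 in the ranked list.

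Replicates were then compared at single loci. With the authors' conservative list, 142 loci were bound, 23.2% of the 612, and 126 of these were also bound with the optimal list. The thresholded list of replicate 1 called 64 tRNA loci, 10.5% of the 612, and that of replicate 2 called 62, 10.1%. Of the 147 bound loci, 33 were called in both replicates, 30 in replicate 1 only, 26 in replicate 2 only and 58 in neither. The median optimal signal was 126.2, 100.1 and 80.3 for loci called in both, in 1 and in neither. A peak of any score was nevertheless present in the ranked list of replicate 1 at 144 of the 147 bound loci and in that of replicate 2 at all 147. The median signal of these peaks was 51.5 in replicate 1 and 45.1 in replicate 2, and they stood at the median percentiles 98.3 and 98.6 of their lists. Within the 144 loci with both values, Spearman's rho of the replicate signals was 0.23 and Pearson's r of their logarithms 0.25. Over the 195 unbound loci with both values rho was 0.13, and over all 339 it was 0.55. Bound loci were chosen on a list made from the reads of the same 2 libraries, which narrows the range within each class. The 3 values are therefore descriptions and their sizes are not compared. The optimal and conservative lists came from different ranked lists, of 81275 and 78700 peaks. An optimal call did not require a peak in each replicate.

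**Figure D1:**
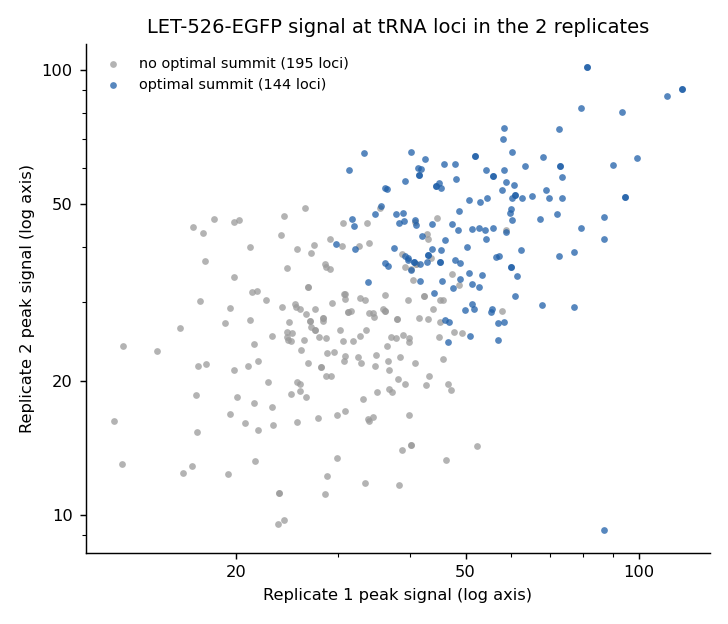
Peak signal at tRNA loci in the ranked lists of replicate 1 (horizontal, log axis) and replicate 2 (vertical, log axis), 1 point per locus with a peak in both. The 144 bound loci (blue) lie toward high values in both replicates, with rho of 0.23 among themselves, and the 195 others (grey) lie lower. The blue point at the bottom right is the proline gene F46G11.t1 (86.8 in replicate 1 and 9.25 in replicate 2), whose peak in replicate 1 lies 159 bp upstream of the gene and whose peak in replicate 2 lies 9 bp upstream.

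Loci below the threshold were examined next. In the ranked list of the optimal comparison, which holds 81275 peaks of any score, 488 loci or 79.7% had a peak. Windows of the same size moved 5000 bp to either side, away from any tRNA gene, had one in 416 of 1193 cases, 34.9%, and an optimal summit in 3, 0.251%. Among the 465 unbound loci 341 had such a peak (73.3%), with a median signal of 48.8 and quartiles of 34.8 and 60.7. Peaks in the moved windows had a median of 29.2. Replicate by replicate, 287 unbound loci had a peak in replicate 1 (median 28.3) and 278 in replicate 2 (median 24.9). The highest unbound signal was 104.7, at the leucine gene C14B9.t2 in an intron of C14B9.3, and 74 loci had no peak in any of the 3 ranked lists. Being unbound in the optimal list therefore did not mean that a locus lacked a peak.

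Summits lay at the start of the tRNA gene. Counted on the gene's strand from 0 at its first base, the median position was 12 bp over the 147 bound loci (quartiles −17.5 and 32.5, range −159 to 224). The summit lay within the gene at 87 loci (59.2%, interval 50.8 to 67.2%), upstream at 54 (36.7%) and downstream at 6 (4.08%). At the 96 bound loci with no other tRNA gene within 1000 bp, the median was 16.5 bp and 84 summits (87.5%, 79.2 to 93.4%) lay within 50 bp of the gene's first base. The median at bound loci was 8.5 bp for the peaks of replicate 1 and 12 bp for those of replicate 2. The shorter A box began at a median of base 8 of the gene and the shorter B box at base 53, so the median summit was nearer to the A box. Peaks at unbound loci with no other tRNA gene near had a median of 23 bp, and 123 of 205 (60.0%, 52.9 to 66.8%) lay within 50 bp. By the size range in the labels, sonicated fragments were longer than a tRNA gene, which limits how finely a summit places the protein.

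**Figure D2:**
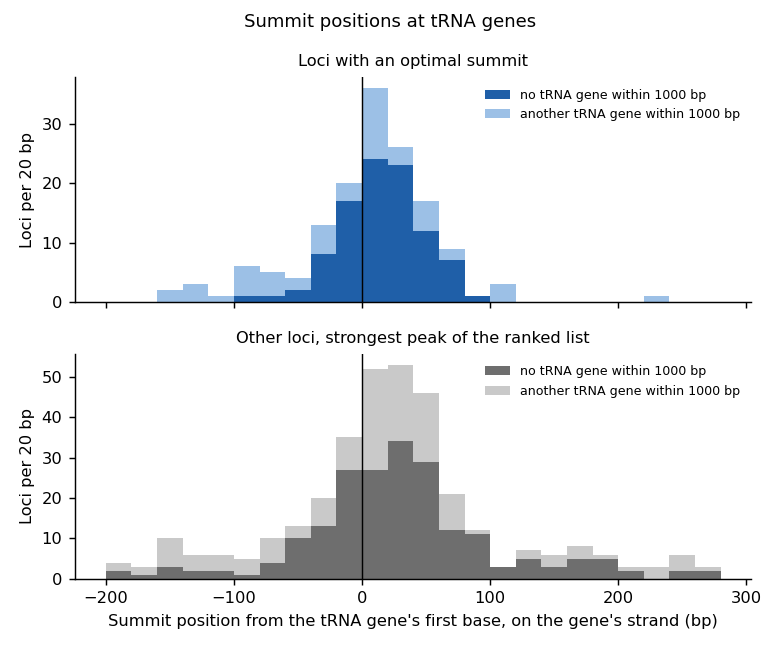
Number of tRNA loci per 20 bp by the position of the strongest summit from the gene's first base (0, black line), on the gene's strand. Bound loci (top, n = 147) centre on a median of 12 bp, and the peaks of the ranked list at other loci (bottom, n = 341) centre on 22 bp with more summits downstream of the gene.

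Loci of every standard amino acid were bound, at shares that did not differ beyond their counting error. All 20 isotypes had bound loci, from 1 of 13 for cysteine (7.69%, interval 0.195 to 36.0%) to 9 of 27 for glutamine (33.3%, 16.5 to 54.0%). Glycine had 18 of 55 (32.7%), lysine 14 of 46 (30.4%), glutamate 12 of 41 (29.3%) and arginine 7 of 44 (15.9%). The interval of each of the 20 isotypes held the overall 24.0%. The only selenocysteine gene, K11H12.t1, was unbound, with a signal of 51.5 in the ranked list, and 5 genes with no isotype in RefSeq were unbound too.

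**Figure D3:**
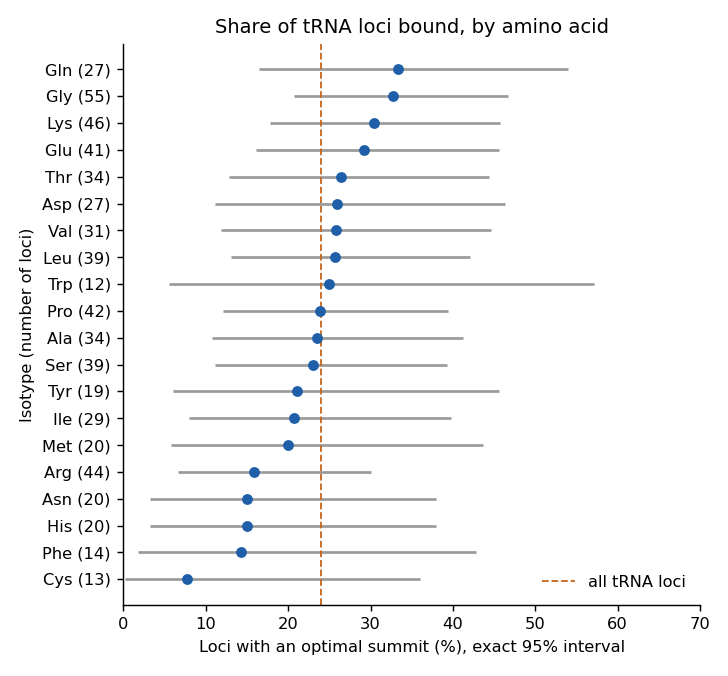
Percent of tRNA loci bound for each of the 20 isotypes, with exact 95% intervals and the number of loci in brackets. The dashed line is the share over all loci, 24.0%, which lies inside every interval.

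Anticodons were read from the gene sequences, and 598 of 612 gave the isotype that RefSeq names. Of 47 anticodons, 39 had 5 loci or more, and each of their intervals held 24.0%. The share was highest among these for valine CAC (3 of 6 loci), glycine GCC (7 of 16, 43.8%, interval 19.8 to 70.1%) and the 7-locus anticodons glutamine CTG, leucine CAA and threonine CGT (3 each). That order rests on the optimal list, since of the 16 glycine GCC loci replicate 1 called 2 and replicate 2 called none. It was lowest for cysteine GCA and serine GCT (1 of 9). Grouped by the first anticodon base, which pairs with the third base of the codon, 28 of 136 loci with G were bound (20.6%), 26 of 138 with A (18.8%), 39 of 141 with C (27.7%) and 53 of 183 with T (29.0%). Those 4 intervals overlapped. Genes with an intron after the anticodon were bound in 9 of 30 cases (30%, 14.7 to 49.4%), against 137 of 568 without (24.1%).

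By chromosome, the share in the optimal list was lowest on V, which was singled out for that reason after the values were seen. On V 8 of 78 loci were bound (10.3%, interval 4.53 to 19.2%), against 139 of 534 elsewhere (26%, 22.4 to 30%). The shares were 22.7% on chromosome I (15 of 66), 29.8% on II (17 of 57), 31.2% on III (20 of 64), 22.5% on IV (16 of 71) and 25.7% on X (71 of 276). On V 4 loci were called in replicate 1 and 6 in replicate 2, against 60 and 56 of the 534 elsewhere. A ranked peak was present at 62 of the 78 loci on V (79.5%), about the share of all loci, but with a median signal of 46.4 against 58.9 over all loci. The 8 bound loci on V, of which T23F1.t1 and T23F1.t2 share a summit, had a median optimal signal of 117.8. They were selected by the optimal list, so that value does not describe the other loci on V. In the optimal list the intervals of V and of the other chromosomes together did not overlap. In the conservative list they did, with 11 of 78 loci bound on V (14.1%, 7.26 to 23.8%) and 131 of 534 elsewhere (24.5%, 20.9 to 28.4%). In the replicate lists they overlapped too, at 5.13% (1.41 to 12.6%) against 11.2% (8.68 to 14.2%) in replicate 1 and 7.69% (2.88 to 16.0%) against 10.5% (8.02 to 13.4%) in replicate 2. The X chromosome, with 276 tRNA genes against 336 on the 5 autosomes, held 48.3% of bound and 44.1% of unbound loci, with overlapping intervals.

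Host genes did not separate bound from unbound loci. Of 290 tRNA genes inside a protein-coding gene 68 were bound (23.4%, 18.7 to 28.8%), against 79 of 319 between genes (24.8%, 20.1 to 29.9%). The 68 lay in 62 host genes. The gene brd-1, which encodes the partner of BRCA1, held 3 bound loci under 2 summits, the lysine gene K04C2.t3 (111.8) and the divergent glycine pair K04C2.t1 and K04C2.t2 (94.3). Loci on the host's strand were bound in 36 of 166 cases (21.7%) and those on the opposite strand in 32 of 124 (25.8%). Loci in the window from 1000 bp before to 200 bp after the start of a protein-coding gene were bound in 25 of 112 cases (22.3%), against 122 of 500 outside (24.4%). For 26 bound loci (17.7%) the summit itself lay in such a window, so those peaks cannot be assigned to 1 of the genes.

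The bound shares of clustered and single tRNA genes depended on how a summit near 2 genes was counted. With another tRNA gene within 1000 bp, 51 of 236 were bound (21.6%, 16.5 to 27.4%), and with none, 96 of 376 (25.5%, 21.2 to 30.3%), where a summit within the flank of neighbouring genes counted for each. With each summit given only to its nearest tRNA gene, 37 of the 236 clustered loci were bound (15.7%, 11.3 to 21.0%) and again 96 of the 376 single ones, and these intervals did not overlap. With no flank, which also drops summits that lie between close genes, 21 clustered (8.90%, 5.59 to 13.3%) and 66 single loci (17.6%, 13.8 to 21.8%) were bound. The split by group under these 2 rules was added after the data were seen. On X the shares were 25 of 135 clustered (18.5%, 12.4 to 26.1%) and 46 of 141 single loci (32.6%, 25 to 41.0%), whereas on the autosomes they were 26 of 101 (25.7%) and 50 of 235 (21.3%). The difference on X was smaller in the conservative list, with 28 of 135 (20.7%, 14.2 to 28.6%) and 38 of 141 (27.0%, 19.8 to 35.1%), and was not seen in the replicate lists, which called 17 and 17 loci in replicate 1 and 16 and 17 in replicate 2. Fewer than 80% of the 50-base words were unique in the genome at 14 of the 135 clustered loci on X and at 2 of the 141 single ones. Over all loci, 1 of 43 with less than 80% unique words was bound, against 146 of 569 others (25.7%).

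The 8 clusters of 4 to 6 genes held 38 loci, of which 4 were bound (10.5%, 2.94 to 24.8%). No locus was bound in 4 of the clusters, and 1 locus was bound in each of the other 4. The bound members were Y65A5A.t4 (histidine, 85.9), F22F1.t6 (methionine, 99.9), H08J11.t3 (glutamine, in ajm-1, 109.3) and R11.t1 (tyrosine, 105.9). A ranked peak was present at 26 of the 38. The F28H6 cluster of 6 histidine genes had no bound locus, with a median of 26.1% unique words, while the other 7 clusters had medians of 86.9% or more. Among the 34 divergent neighbours at most 200 bp apart, both genes were bound in 9 pairs, each time under 1 shared summit, and neither in 25. Such windows overlap, so a summit between the genes counts for both. Across the genome 14 summits served 2 loci each, and the strongest peaks of the 147 bound loci were 133 distinct summits. In all, 135 optimal summits lay in a tRNA locus, and 2 bound loci held more than 1.

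Identical tRNA genes did not all share the same call. The 612 genes had 200 distinct sequences, and 57 of these had 2 or more copies. Both bound and unbound copies occurred in 39 of the 57 families, which hold 422 genes, 124 of them bound. All 20 families of 10 or more copies were mixed, from 1 of 12 bound in a cysteine family (8.33%) to 6 of 11 in a glycine family (54.5%). With 24.0% of all 612 loci bound, most families of that size would hold both kinds whatever their sequence. The mixing is therefore a description only. The largest were a glycine family of 29 with 11 bound, a lysine family of 25 with 9 bound and a proline family of 24 with 7 bound. Their bound copies spanned optimal signals of 74.9 to 209.5, 72.0 to 180.7 and 70.5 to 150.4. The highest glycine and proline values were those of M02F4.t1 and T23F1.t2, whose summits are shared and lay nearer to the neighbouring tRNA gene. Of the unbound copies of these families, 12 of 18, 12 of 16 and 13 of 17 had a ranked peak. The gene sequence was the same in each family, so the copies differed only outside it. Reads that lie wholly within a gene cannot be given to 1 copy, and only flanking sequence tells copies apart.

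**Figure D4:**
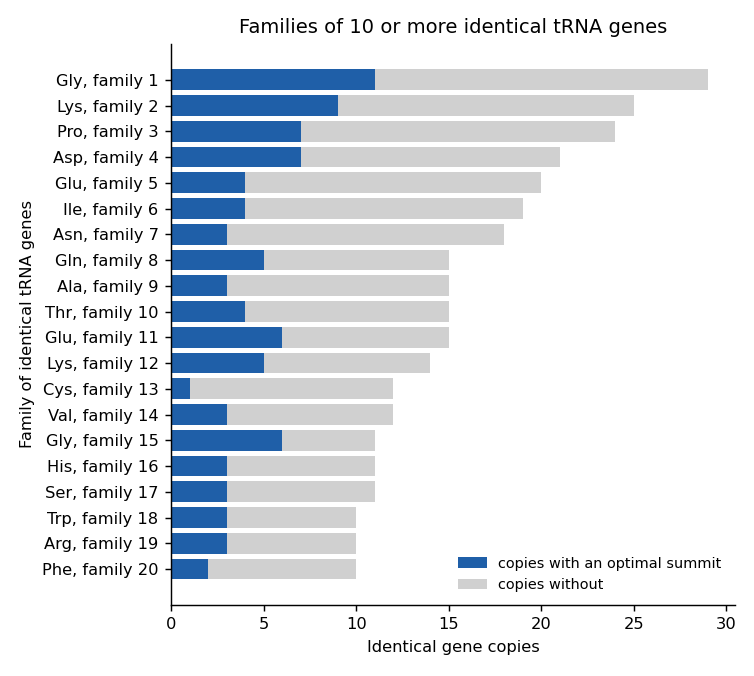
Number of copies with an optimal summit (blue) and without (grey) in each of the 20 families of 10 or more identical tRNA genes, named by amino acid and ordered by size. Every family holds both kinds, from 1 of 12 bound copies (cysteine, family 13) to 6 of 11 (glycine, family 15).

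Genes without an identical copy were bound less often. Of 143 such genes 18 were bound (12.6%, 7.63 to 19.2%), against 37 of 152 with 2 to 9 copies (24.3%, 17.8 to 32.0%) and 92 of 317 with 10 or more (29.0%, 24.1 to 34.4%). The first interval did not overlap the third and overlapped the second. The replicate lists called 6 and 5 of the 143, and 38 and 38 of the 317. With the 14 genes left out whose anticodon could not be matched, the shares were 17 of 129 for 1 copy (13.2%, 7.87 to 20.3%) and 129 of 469 for more (27.5%, 23.5 to 31.8%). A ranked peak was present at 98 of the 143 genes (68.5%), with a median signal of 46.3 against 61.7 for families of 10 or more.

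The sequence before the gene differed in composition between bound and unbound loci, a comparison added after these data were seen. G and C made up a median of 46% of the 100 bp upstream at bound loci (quartiles 42 and 49%) and 40% at unbound loci (34 and 46%). Downstream the medians were 32% and 30%. Of the 136 loci with less than 35% upstream G and C, 6 were bound (4.41%, 1.64 to 9.36%). The share was 16 of 111 from 35 to below 40% (14.4%), 37 of 143 from 40 to below 45% (25.9%), 54 of 130 from 45 to below 50% (41.5%, 33 to 50.5%) and 34 of 92 at 50% or more (37.0%). Replicate 1 called 1, 6, 21, 20 and 16 loci in these 5 ranges, and replicate 2 called 1, 4, 11, 28 and 18. So the low end held few bound loci in both replicates.

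**Figure D5:**
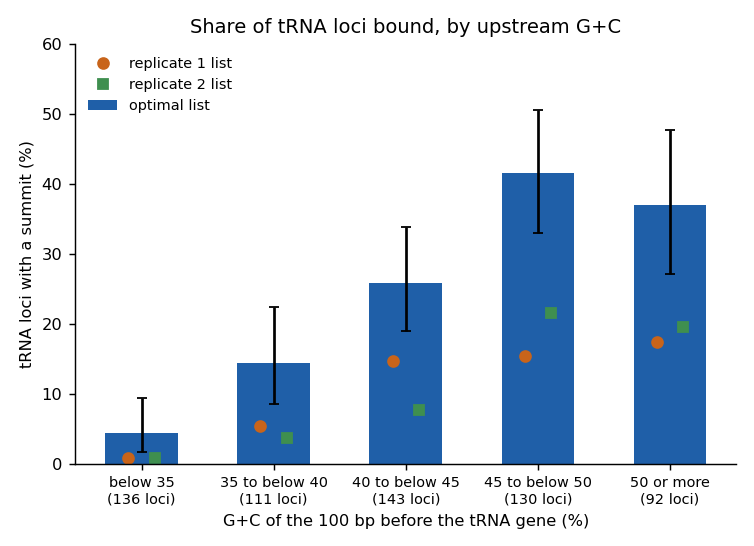
Percent of tRNA loci with a summit (vertical) by the G and C content of the 100 bp before the gene (horizontal, 5 ranges with the number of loci), for the optimal list (bars, exact 95% intervals) and for each replicate's thresholded list (points). The bars rise from 4.41% to 41.5% and end at 37.0%, and both sets of points are lowest in the first range.

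The difference was also present within groups. With no other tRNA gene within 1000 bp, the medians were 46% at 96 bound and 42% at 280 unbound loci. It had the same sign on all 6 chromosomes, for example 45% against 37% on X. Among the 39 mixed families, the bound copies had the higher median in 33, the lower in 5 and the same in 1. On V, with the upstream content at 40% or more, 8 of 52 loci were bound (15.4%, 6.88 to 28.1%), against 117 of 313 elsewhere (37.4%, 32.0 to 43.0%). These 8 are all the bound loci of V, which was itself singled out for its low share. Of the 52 loci, the conservative list held 11 and the replicate lists 4 and 6. Of the 313 they held 112, 53 and 51. The part of composition in the share on V was not tested. Genes of 1 copy at 40% or more were bound in 16 of 81 cases (19.8%, 11.7 to 30.1%), against 109 of 284 with more copies (38.4%, 32.7 to 44.3%). Over the whole series a different window was measured, the 100 bp at the summit. Its median G and C content was 49% at optimal summits, which include 135 at tRNA loci, and 40% at ranked peaks below the threshold. The part of fragment composition in the recovery of peaks was not tested.

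Upstream sequences of identical histidine, threonine and glutamine genes are printed below, to show sequence outside genes that are themselves identical. Each pair gives the strongest bound copy and the unbound copy of lowest ranked signal that could be shown, for the 100 bp before the gene on its strand, with G and C in capitals. For histidine the bound W09G10.t1 (98.3) had 58% and the unbound F28H6.t3, which had no ranked peak, 24%, but only 8.51% of the words at F28H6.t3 were unique. For threonine the bound Y39A1A.t1 (105.3) had 44% and the unbound F36D4.t2, which had no peak in the ranked list of the optimal comparison, 31%. For glutamine the order was opposite, with 41% at the bound H35N09.t1 (114.1) and 49% at the unbound C05E7.t2, whose ranked signal was 11.1. The summit of H35N09.t1 lay 156 bp upstream, inside its divergent neighbour H35N09.t2, another glutamine gene. These 3 pairs were picked by signal and show single loci, not the trend.
W09G10.t1, chrII:3521559-3521658, minus strand: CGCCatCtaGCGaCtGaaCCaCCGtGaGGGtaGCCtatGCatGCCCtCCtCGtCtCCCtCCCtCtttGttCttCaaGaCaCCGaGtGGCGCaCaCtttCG
F28H6.t3, chrX:14135774-14135873, plus strand: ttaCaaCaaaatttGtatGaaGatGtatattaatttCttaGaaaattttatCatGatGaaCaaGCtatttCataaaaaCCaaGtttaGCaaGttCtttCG
Y39A1A.t1, chrIII:10624814-10624913, minus strand: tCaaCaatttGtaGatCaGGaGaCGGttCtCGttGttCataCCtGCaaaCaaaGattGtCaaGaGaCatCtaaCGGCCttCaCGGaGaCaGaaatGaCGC
F36D4.t2, chrV:9407112-9407211, minus strand: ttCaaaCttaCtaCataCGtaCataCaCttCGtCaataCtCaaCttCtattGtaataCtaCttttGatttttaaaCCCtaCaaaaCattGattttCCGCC
H35N09.t1, chrX:8608938-8609037, plus strand: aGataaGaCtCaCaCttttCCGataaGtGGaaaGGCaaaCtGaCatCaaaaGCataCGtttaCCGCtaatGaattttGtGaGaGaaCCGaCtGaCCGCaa
C05E7.t2, chrX:12938082-12938181, plus strand: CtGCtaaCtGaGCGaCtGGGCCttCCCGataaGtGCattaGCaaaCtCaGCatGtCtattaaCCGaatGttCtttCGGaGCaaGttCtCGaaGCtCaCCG

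The genes themselves of the histidine and threonine families and of the glutamine family, given once each with their boxes in capitals, were the following.
Histidine, 11 copies, 3 bound (the copy at chrII:3521487-3521558, minus strand): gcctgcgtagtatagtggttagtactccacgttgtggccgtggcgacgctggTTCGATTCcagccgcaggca
Threonine, 15 copies, 4 bound (the copy at chrIII:10624742-10624813, minus strand): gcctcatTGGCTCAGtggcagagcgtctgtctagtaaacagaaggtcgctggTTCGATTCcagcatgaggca
Glutamine, 15 copies, 5 bound (the copy at chrX:8609038-8609109, plus strand): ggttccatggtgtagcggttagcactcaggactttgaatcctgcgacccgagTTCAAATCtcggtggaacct

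The internal boxes did not separate bound from unbound genes. The B box GTTCGANNC was in 441 genes on the gene strand, and 108 of these were bound (24.5%, 20.5 to 28.8%), against 39 of 171 without it (22.8%, 16.7 to 29.8%). The A box TGGCNNAGT was in 61 genes, 16 of them bound (26.2%), against 131 of 551 without (23.8%). With the shorter TNGCNNAG, 61 of 268 with it were bound (22.8%) and 86 of 344 without (25%), and with the shorter TTCNANNC, 143 of 591 (24.2%) and 4 of 21 (19%). Each longer box contains the shorter. On either strand, windows of the median gene length (72 bp) at protein-coding starts held GTTCGANNC in 0.561%, TGGCNNAGT in 0.591%, TTCNANNC in 17.7% and TNGCNNAG in 8.14% of cases, against 72.2%, 9.97%, 98.5% and 44.0% of tRNA genes. A run of TTTT followed within 30 bp in 605 genes, of which 147 were bound, and in 7 genes it did not and none was bound (0%, 0 to 41.0%). The same run followed 30.7% of the protein-coding windows.

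Other genes of small RNAs were taken in the same way, as were windows of the median tRNA gene length at protein-coding starts, widened by 200 bp. Of these windows 261 of 19973 were bound (1.31%, 1.15 to 1.47%). Genes of Piwi-interacting RNAs were bound in 9 of 15363 cases (0.0586%). Genes that RefSeq annotates as tRNA pseudogenes, decayed copies of tRNA genes, were bound in 7 of 209 cases (3.35%, 1.36 to 6.78%), and 105 (50.2%) had a ranked peak. Their interval lay below that of tRNA genes (20.7 to 27.6%) and above the 0.251% of the moved windows. Genes of small nucleolar RNAs, the guides of RNA modification, were bound in 53 of 346 cases (15.3%, 11.7 to 19.6%), small nuclear RNA genes, mostly of the splicing machinery, in 13 of 129 (10.1%, 5.48 to 16.6%) and microRNA genes in 8 of 261 (3.07%). None of 20 ribosomal RNA genes was bound (interval 0 to 16.8%). Only 4 of the 20 had a ranked peak, and the share of unique words was not measured at them, so the lack of calls is not read as a lack of binding. Of other known products of RNA polymerase III, rpr-1, the RNA of RNase P, which trims the 5′ end of tRNA precursors, had an optimal signal of 225.8 (116.3 in replicate 1 and 103.3 in replicate 2), above every tRNA locus. The Y RNA gene yrn-1 was unbound, with a ranked signal of 38.5.

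Genes that make the tRNA machinery were then listed, with a summit from 1000 bp upstream to 200 bp downstream of the start as the rule. Of 43 genes of RNA polymerase III, its factors and tRNA maturation, 3 had one (6.98%, 1.46 to 19.1%), against 3.32% of all 19973 protein-coding genes, a share inside that interval. They were rpac-19, a subunit shared by RNA polymerases I and III (94.4, with 66.2 in replicate 1 and 26.5 in replicate 2), mtcu-2, a mitochondrial tRNA modification enzyme (322.9, with 187.8 and 137.5), and xpo-1, the nuclear export receptor exportin 1 (76.6, with 45.1 and 33.3). The thresholded lists of both replicates called mtcu-2, that of replicate 1 alone called rpac-19, and neither called xpo-1. Their summits lay 99 bp (rpac-19), 478 bp (mtcu-2) and 821 bp (xpo-1) upstream of the start. Of 32 aminoacyl-tRNA synthetase genes 2 had one (6.25%, 0.766 to 20.8%), ears-2 (108.4) and aars-1 (82.4). The summit lay 1 bp from the start of ears-2 and 476 bp upstream of that of aars-1, and neither gene was called in the thresholded list of a replicate.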

How the data were processed

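ChIP-seq peak lists of 2 replicates and of both together were analysed. The peak signal in each list, a value of the peak caller with no stated unit, was deposited by the authors. It was compared only within a list, except that the lower of the 2 replicate signals was used to name loci. The score (at most 1000) and the −log10 of the irreproducible discovery rate were deposited by the authors too. Score and rate matched within about 1 in the ranked lists. The assembly is ce11, per the labels. Not given in the sources used here were the aligner and the peak caller. No column went unmatched to a sample or pool (0).

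Summits (peak start plus the deposited offset) were intersected with Ensembl 115 genes on WBcel235. Isotypes came from RefSeq. Anticodons were read from the gene sequences alone, then compared with the isotype, and used only where they matched it. Uniqueness is the share of 50-base words of a locus found once in the genome. Each locus took its strongest peak. The calling steps were tested on made-up peaks.

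The members, lists, boxes and named-locus rule were chosen with earlier results of these data known. Named loci were the 10 strongest bound, the strongest of each isotype, the 10 with the highest lower replicate signal, the 3 weakest bound, the 3 unbound of highest score, the 3 largest mixed families and clusters of 4 or more genes. Loci named for other reasons, such as C14B9.t2 and K04C2.t1, were chosen after their values were seen. Groups under 5 loci are given as counts. Intervals are Clopper-Pearson. No test between groups was run. Printed sequences were limited to loci off 1 chromosome that share no stretch of 30 bases with it. Of the 2 gene lists, 1 of 44 and 3 of 35 names were not found. Python 3.11 with pandas, numpy and scipy was used.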

Additional observations from a re-analysis of the deposited data

How the results depend on the processing

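Of 102 recomputed values, 85 stayed close to those reported and 17 moved, and none changed sign. The close ones were within 1.5 times for counts and differences, and within the interval for shares and the correlation. For the summit position they were within the spread of the replicates. Not every setting could move a value, since leaving out loci with less than 50% unique words kept all 147 bound loci. With only peaks at or above the median signal, 79 loci were bound, 44.3% of them had another tRNA gene within 1000 bp, and rho was 0.027. With no flank, 87 loci were bound, of which 24.1% had another tRNA gene near and 2.30% lay on V, the median summit was at 23 bp by construction, since summits outside the gene no longer count, and the share of 1-copy genes bound minus that of the others was −7.6 percentage points, against −14.9 as reported. Either replicate alone gave 62 to 64 bound loci, 35.9 to 40.3% of them inside a protein-coding gene, 37.5 to 43.5% near another tRNA gene, 53.1 to 53.2% on X, 6.25 to 9.68% on V, a median summit at 7 to 7.5 bp, rho of 0.294 to 0.423, 30 to 31 mixed families, an upstream composition 5 to 7 points higher at bound loci, and a share of 1-copy genes minus others of −8.66 to −8.17 points. Other causes of these shifts were not tested. Of 29 named loci, 3 changed their call with the conservative list, 10 with no flank, and 6 and 9 with the replicate 1 and replicate 2 lists. No paired analysis was possible because there was 1 group. No control library was analysed here, so the background signal at these loci was not measured, and with 1 group and 2 replicates no condition was compared.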

Other observations

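Several loci were called in a replicate but not with both together. The thresholded list of replicate 2 called the lysine gene F18C5.t1 in mpz-3 (signal 52.5) and the alanine gene Y7A9D.t2 (55.1), although neither had a peak in the ranked list of replicate 1 or of the optimal comparison. It also called the proline gene F23D12.t2 (35.2), which had no peak in replicate 1. Replicate 1 alone called the arginine gene F35H8.t1 (57.7, against 28.7 in replicate 2). Conversely, 3 bound loci had no peak in the ranked list of replicate 1, the glutamine gene B0228.t1 (optimal signal 89.7, 39.9 in replicate 2), the glutamate gene T26C11.t1 (87.4 and 40.5) and the tryptophan gene C06E2.t1 (81.2 and 31.6).

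The optimal and conservative lists disagreed at 37 loci, of which 21 were bound with the optimal list only and 16 with the conservative list only. C14B9.t2, the unbound locus of highest ranked signal (104.7), was among the 16. It is a leucine gene of 1 copy with 52% G and C upstream, 2877 bp from the bound methionine gene C14B9.t1.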
